A study of Mus musculus with 4 samples.

Results

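The immediate early genes are a set of 10 genes that neurons transcribe within minutes of activity: Arc, Fos, Fosb, Junb, Egr1, Egr2, Egr3, Egr4, Npas4 and Nr4a1. Their members here were the deposited regions that carry one of these gene names, together with the regions on the same chromosome within 5 kb of the outermost named ones. This gave 158 of the 849014 regions with a value in every library, with 10 for Arc, 14 each for Fos and Npas4, 15 each for Junb and Egr4, 16 each for Egr1 and Nr4a1, 19 each for Fosb and Egr2 and 20 for Egr3.

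The 4 libraries are whole-genome bisulfite libraries made from the hippocampal CA1 of C57B6/J mice aged 117 days. The 2 controls are labelled Tet2+f. The other 2 are labelled Tet2+f_Camk2aCre, carry the same Tet2+f label, and are called the Cre libraries below. The series text describes CA1 tissue with Tet2 haploinsufficiency in glutamatergic cells, so the comparison asks whether methylation differs when the dose of this 5-methylcytosine dioxygenase is lowered. Cre is read from the label as driven by the Camk2a promoter, which is active in excitatory forebrain neurons. The tissue was not described as sorted, so each level averages over neurons and other cells. No group has Cre without Tet2+f, so an effect of reduced Tet2 and an effect of Cre or its transgene cannot be told apart. Whether both libraries of a group are from different animals is not stated, so p-values here reflect library-to-library spread that may be technical.

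The genes lie on 9 chromosomes, with these spans in RefSeq (GRCm38.p6). Among the AP-1 genes, Fos is on chromosome 12, 85473890 to 85477274 (plus strand), Fosb on chromosome 7, 19302696 to 19310118 (minus strand) and Junb on chromosome 8, 84976909 to 84978748 (minus strand). Egr1 is on chromosome 18, 34861207 to 34864956 (plus strand) and Egr2 on chromosome 10, 67534469 to 67542188 (plus strand). Egr3 is on chromosome 14, 70077317 to 70082613 (plus strand) and Egr4 on chromosome 6, 85511121 to 85513589 (minus strand). Arc is on chromosome 15, 74669081 to 74672570 (minus strand) and Nr4a1 on chromosome 15, 101253902 to 101274795 (plus strand), the only pair on 1 chromosome. Npas4 is on chromosome 19, 4984353 to 5003439 (minus strand). The start used for Npas4, Nr4a1, Egr2 and Fosb is the first one in the RefSeq promoter table, which lies inside the annotated span.

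Immediate early genes need no new protein synthesis to be induced. Calcium entry and growth factor signals act on transcription factors that are already bound, among them CREB at cyclic AMP response elements and SRF at CArG boxes. Their products are mostly transcription factors that in turn regulate later genes, and Arc, which acts at the synapse, is the exception in this set. In the hippocampus they are used as markers of neurons that were active during learning. Methylation of cytosine in CpG dinucleotides at a gene start is generally associated with silence of that gene, and TET enzymes oxidise the methyl group. Bisulfite sequencing does not separate 5-methylcytosine from its first oxidation product, so each level is the sum of both.

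Promoter sequence is shown for 4 of the genes because it holds the CpGs behind the levels at the gene start. RefSeq promoters (GRCm38.p6, the assembly of mm10) matched 7 of the 10 genes, not Arc, Egr1 and Egr3. The 250 bases before the start held 15 CpGs for Fos, 16 for Npas4, 28 for Egr4 and 34 for Nr4a1, and the capitals below mark every CpG. The median over all 32851 promoters of the table was 6, with quartiles of 2 and 16.
Fos, chr12:85473640-85473889, plus strand: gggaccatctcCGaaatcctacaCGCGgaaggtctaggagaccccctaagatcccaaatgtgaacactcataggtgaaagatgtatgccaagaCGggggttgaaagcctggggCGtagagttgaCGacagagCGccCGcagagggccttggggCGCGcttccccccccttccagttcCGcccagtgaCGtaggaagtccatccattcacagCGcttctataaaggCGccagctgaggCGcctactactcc
Npas4, chr19:4989972-4990221, minus strand: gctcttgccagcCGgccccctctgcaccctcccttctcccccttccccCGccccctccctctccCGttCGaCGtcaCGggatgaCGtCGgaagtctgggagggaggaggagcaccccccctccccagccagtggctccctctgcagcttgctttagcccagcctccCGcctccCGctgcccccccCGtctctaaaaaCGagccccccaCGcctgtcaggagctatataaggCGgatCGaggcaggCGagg
Egr4, chr6:85513590-85513839, minus strand: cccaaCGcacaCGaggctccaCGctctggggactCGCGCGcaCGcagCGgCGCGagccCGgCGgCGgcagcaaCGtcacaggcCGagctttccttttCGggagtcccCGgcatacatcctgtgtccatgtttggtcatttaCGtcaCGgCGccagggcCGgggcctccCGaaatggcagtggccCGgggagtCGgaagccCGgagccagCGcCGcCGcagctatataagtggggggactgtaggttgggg
Nr4a1, chr15:101266596-101266845, plus strand: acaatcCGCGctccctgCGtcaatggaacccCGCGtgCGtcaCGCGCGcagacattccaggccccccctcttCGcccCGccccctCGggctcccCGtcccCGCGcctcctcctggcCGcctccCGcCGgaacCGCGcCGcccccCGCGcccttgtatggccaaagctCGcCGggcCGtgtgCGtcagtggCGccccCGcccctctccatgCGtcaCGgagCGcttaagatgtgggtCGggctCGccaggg

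The half-site of the cyclic AMP response element, TGACG, was found on either strand in the 250 bases before the first listed start of 6 of these 7 genes. It occurred 2 times in Fos, Npas4 and Egr4, 4 times in Nr4a1 and 1 time each in Fosb and Junb. The first listed start of Egr2 had none, and the same search found it before a later start of that gene. Of all promoters in the table, 17.8% held TGACG in this window. Its letters include a CpG, so each copy is itself a site that can be methylated. The full element TGACGTCA contains the half-site on both strands. Found in 1.55% of all promoters, it was in none of the windows of these genes. A CArG box was found before later starts of Egr2 alone and in 1.47% of all promoters. A TATAAA box lay 33 to 28 bases before the start of Fos and in 12.4% of all promoters. A match is a description of letters and not a binding site. Each search covered a fixed letter pattern in these 250 bases, so variants of a motif and sites further upstream were not counted.

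The starts of all 10 genes had low methylation. Levels are given for control replicates 1 and 2 first, and those after "against" are for Cre replicates 1 and 2. The region over the start had a mean over the 4 libraries under 10% in 10 of 10 genes, against 49.6% of the 20599 protein-coding genes with a region over their start. These shares are not matched for region length. The median start region was 273.5 bp for the members and 1437 bp for all genes with a region over the start. The start regions of Junb (308 bp) and Nr4a1 (219 bp) were at 0% in every library. For Fos the start region was at 0% and 0.370% in the controls and at 0% and 1.67% with Cre. Fosb was at 0.198% and 0.5% against 0% and 0.5%. These levels show no order between the groups.

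Among the Egr genes, a family of zinc finger transcription factors, start levels were also low. Egr1 was at 0% in 3 libraries and at 0.709% in replicate 1 of the Cre group. Egr2 was at 0% and 0.855% in the controls and at 0.8% and 2.0% with Cre. For Egr3 the levels were 1.56% and 0% against 0% and 0%, and for Egr4 0% and 0% against 0% and 1.13%. Arc, whose product traffics AMPA receptors at the synapse, was at 0.581% and 0% in the controls and at 0% and 2.67% with Cre. The control and Cre libraries overlapped or tied at each of these starts.

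Npas4, an activity-dependent transcription factor of the bHLH-PAS family, had the highest start region. This region is also the longest of the 10, with 950 bp that reach from 892 bp before to 57 bp after the start (chromosome 19, 4989914 to 4990863). It was at 3.57% and 5.62% in the controls and at 16% and 6.43% with Cre. Both Cre libraries lay above both controls, and most of the difference of 6.65 points came from replicate 1 of the Cre group. Without that library the difference was 1.84 points. It did not pass the test (limma on logit-transformed levels over all regions, Benjamini-Hochberg adjusted p = 0.937).

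**Figure D1:**
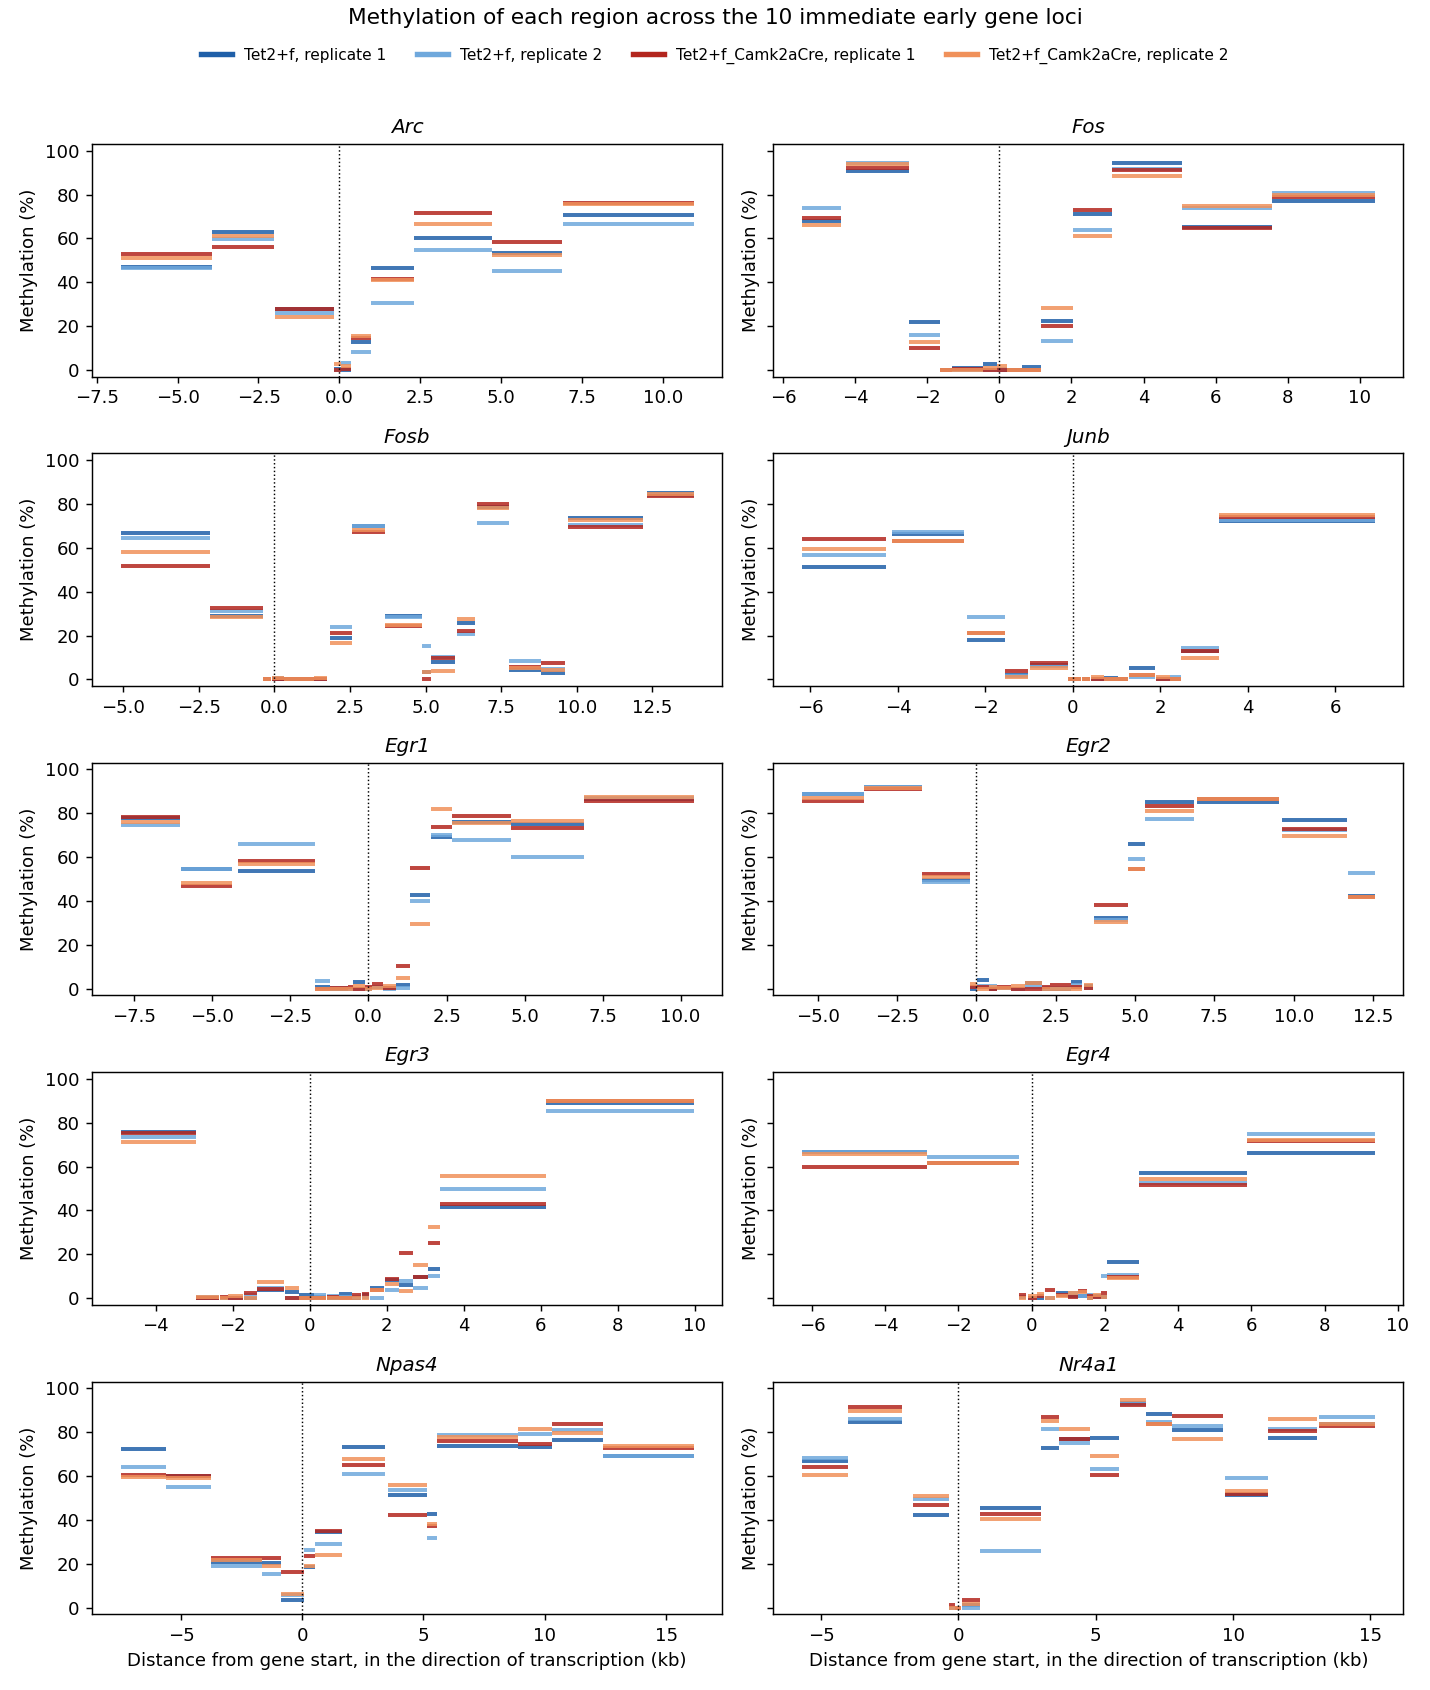
Methylation level in percent (vertical axis) of every region in the 10 loci against distance from the gene start in kb, in the direction of transcription. Each line is 1 region in 1 library, blue for Tet2+f and red or orange for Tet2+f_Camk2aCre. The lines dip to a mean under 10% at each start, and the dip is widest in Egr3 and narrow in Arc, Npas4 and Nr4a1.

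The genes differed in how far the unmethylated stretch reached. Neighbouring regions with a mean under 10% over the 4 libraries were joined around each start, with gaps of at most 500 bp. Egr3 had the longest stretch, 6009 bp in 16 regions, from 2951 bp before to 3057 bp after its start (chromosome 14, 70074366 to 70080374). Junb followed with 4012 bp, Egr2 with 3888 bp, Egr1 with 3045 bp and Fos with 2801 bp. Egr4 had 2401 bp and Fosb 2134 bp. All 7 exceeded the upper quartile of protein-coding genes with a start under 10%, which was 1694 bp with a median of 1160 bp. The other 3 were shorter than that median, with 1145 bp for Nr4a1, 950 bp for Npas4 and 534 bp for Arc. Regions were assigned whole, so each stretch ends where a deposited region ends.

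**Figure D2:**
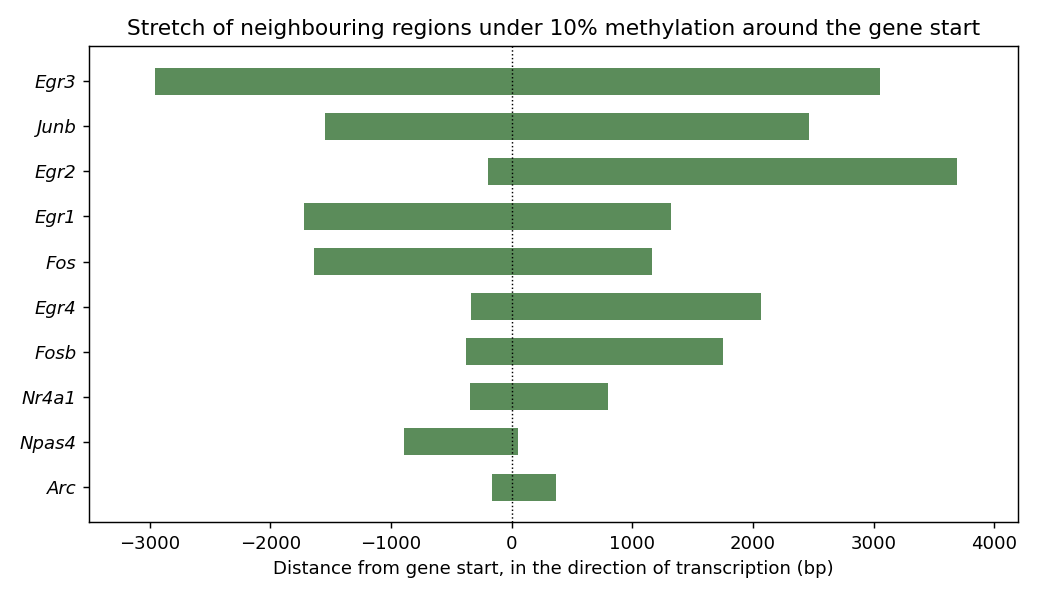
Extent of the stretch of regions under 10% around the start of each gene, in bp from the start in the direction of transcription. Egr3 spans 6009 bp on both sides of its start, Egr2 reaches 3693 bp into the gene but 194 bp upstream, and Arc spans 534 bp.

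The side of the stretch also differed between genes. In Egr2 it began 194 bp before the first listed start and ran 3693 bp past it, over the later starts as well, and in Egr4 it ran from 334 bp before to 2066 bp after the start. Fosb and Junb also extended further on the downstream side, by 1754 bp within Fosb and by 2465 bp in Junb, where the stretch ran past the end of the gene. Egr1 and Fos extended further upstream, by 1719 bp and 1634 bp. Npas4 extended 892 bp before and 57 bp past the start used here. A long noncoding gene, Gm32255, is annotated with its start at 67536180 inside the Egr2 stretch, on the same chromosome.

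Beyond the stretch, the level of the next region upstream differed between genes. Its mean over the 4 libraries was 15.2% in Fos, 19.3% in Npas4, 22.3% in Junb, 26.5% in Arc and 30.3% in Fosb. It was 47.4% in Nr4a1, 50.3% in Egr2, 58.8% in Egr1, 62.3% in Egr4 and 73.9% in Egr3. Upstream of the Npas4 start used here, the regions from 4990864 to 4991645 and from 4991646 to 4993714 were at 20.3% and 15.1%, and at 20.8% and 18.9%, in the controls. Both regions lie inside the annotated Npas4 span. In the Cre libraries they were at 22.5% and 19.2%, and at 22.5% and 21.8%. The first pair of groups overlapped and the second did not, and neither passed the test. Arc was at 27.9% and 26.2% against 27.7% and 24.2% just upstream of its stretch, in the region from 74672732 to 74674564. Its next region, from 74674597 to 74676500, was already at 63.1% and 59.6% against 55.9% and 61.1%. A long noncoding gene, Gm32994, is annotated from 74673013 to 74704511, over most of the first and all of the second of these Arc regions. In Nr4a1, an orphan nuclear receptor gene, the region just upstream of the stretch was at 42.3% and 49.5% against 46.9% and 50.8%. That region also lies inside the annotated span of its gene. In Egr3 the level stepped to 75.7% and 73.5% against 75.2% and 71.3% in the region next upstream, and in Egr4 to 61.6% and 64.3% against 61.9% and 61.6%. The groups overlapped at the upstream edges of Arc, Nr4a1, Egr3 and Egr4.

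Fosb had further low regions downstream of the gene and within it. The downstream regions from 19300427 to 19301227 and from 19301228 to 19302278 (chromosome 7) were at 2.89% and 4.97%, and at 4.35% and 8.39%, in the controls. In the Cre libraries they were at 7.57% and 4.49%, and at 5.74% and 5.37%. A long noncoding gene, Gm26802, has its annotated start at 19300793, in the first of them. The groups overlapped in both. Within Fosb the region from 19304872 to 19305149 was at 3.50% and 15.4% in the controls and at 0% and 3.48% with Cre. The difference of -7.70 points was smaller than the gap of 11.9 points between the control libraries.

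Averaged over the promoter window, from 2000 bp upstream to 500 bp downstream of the start, the genes ranged from 1.33% for Egr3 to 29.0% for Egr2. Each region overlapping the window counted equally, whatever its length. Egr2 was at 29.1% and 28.8% in the controls and at 29.0% and 29.0% with Cre. It includes regions upstream of its short upstream stretch, which were at 48.6% to 92.0%. The later listed starts of Egr2, from 67537566 to 67537930, lie inside its stretch under 10%. No window was computed for them, so the rank of Egr2 holds for its first listed start only. Next came Npas4 at 15.8% and 16.5% against 21.2% and 16.5%, then Egr4 at 12.4% and 13.2% against 13.6% and 13%. Nr4a1 followed at 10.8% and 12.4% against 12.9% and 13.1%, and Arc at 10.3% and 9.43% against 10.7% and 11.1%. Egr1 was at 7.42% and 8.86% against 7.87% and 7.50%, and Fosb at 7.41% and 7.97% against 8.12% and 7.27%. Junb was at 4.49% and 6.08% against 5.39% and 4.74%, Fos at 4.31% and 2.70% against 1.77% and 2.63%, and Egr3 at 1.18% and 1.22% against 1.04% and 1.89%. In this order the ranges of the 4 libraries overlapped between Egr4 and Nr4a1, Nr4a1 and Arc, Egr1 and Fosb, and Fos and Egr3, and not between the other neighbours.

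No member promoter passed the test. The limma fit over 31642 promoters gave adjusted p of at least 0.943 for the 10 genes, where 0.0158% of all promoters passed. That share is 5 promoters, named after their values were seen (Ccl21b, Gm13304, Gm13305, Gm13306 and Gm52695), which share 1 region of 164798 bp. At an unadjusted p under 0.05 there were 0 of the 10 member promoters, against 5.31% of all promoters. The groups did not overlap in 3 promoters that were higher in the Cre libraries, Arc by 1.05 points, Npas4 by 2.74 and Nr4a1 by 1.39, and in 1 that was lower, Fos, with -1.31 points. That is 4 of 10, where 33.7% of all promoters did not overlap, 17% higher and 16.8% lower. For Arc the sign depends on how regions are weighted, with -0.499 points when each region counts by its overlap with the window. The larger part of the Npas4 value came from replicate 1 of the Cre group, without which it was 0.406 points. With the outermost annotated start in place of the one used here, a choice made after seeing the data, the differences were -1.85 points for Npas4 and -2.78 for Nr4a1, so their direction depends on the start. Leaving out replicate 1 of the control group brought the Fos difference to -0.501 points.

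**Figure D3:**
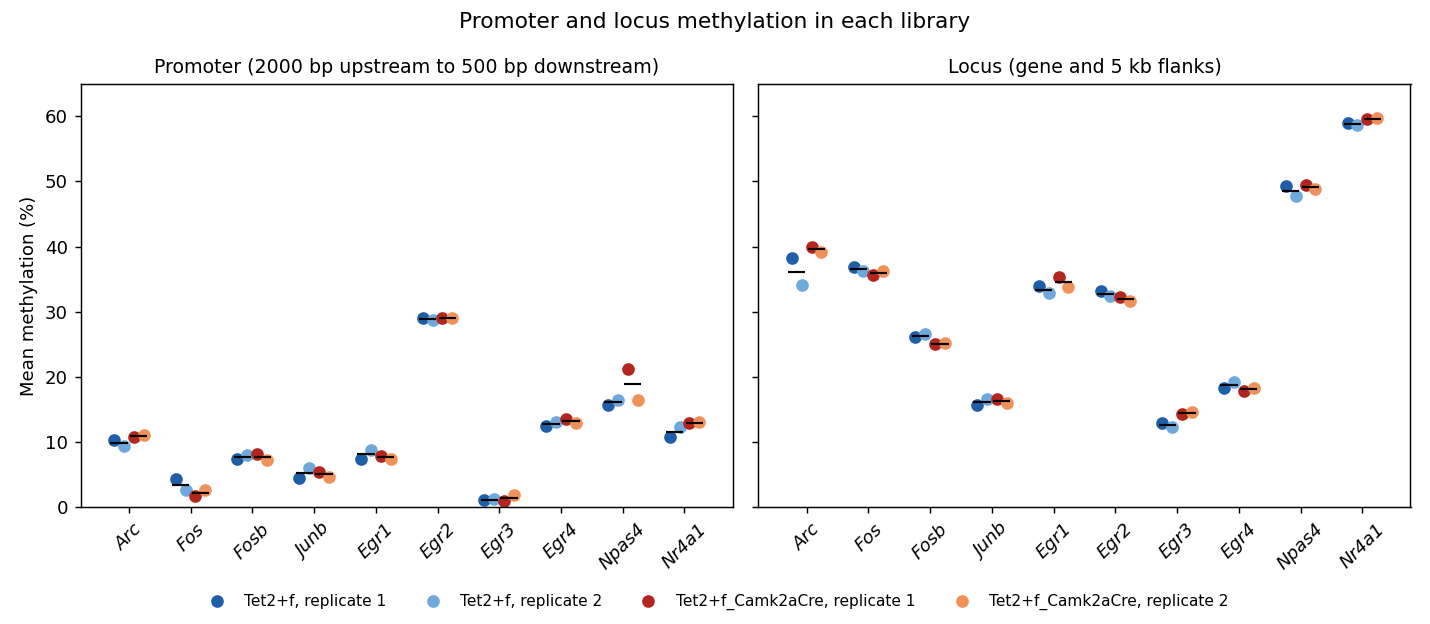
Mean methylation in percent of the promoter window (left) and of the whole locus (right) for each gene, with each region counted equally. Each point is 1 library and each black bar the mean of the 2 libraries of a group. The order of the genes differs between the panels, with Egr2, at its first listed start, highest over promoters and Nr4a1 highest over loci. The groups lie close together for each gene.

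Over whole loci, the same rule was applied to all 26849 gene loci in the table, and 0% of them passed the adjusted threshold. Nr4a1 had the highest locus mean of the 10, at 58.9% and 58.6% in the controls and 59.5% and 59.8% with Cre, and Npas4 came next at 49.3% and 47.7% against 49.4% and 48.8%. Egr3 was lowest, at 13% and 12.3% against 14.4% and 14.6%. In between lay Fos, Egr1, Egr2, Fosb, Egr4 and Junb in that order below Arc. The 4-library ranges overlapped only between Arc and Fos and between Egr1 and Egr2 among neighbours in the order. The median locus in the table was at 73.1%, and all 10 were below it. Each locus mean, also behind that median, counts regions equally, so short regions weigh as much as long ones. Regions over 50% made up from 39.3% (Egr3) to 79.6% (Egr1) of the region length of a locus. The share was 79.5% in Egr4, 71.1% in Fos and 59.7% in Arc. The levels and their order hold for this equal weighting only.

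Egr3 had the smallest p of the 10 loci. Its difference was 1.84 points, from 12.7% ± 0.491 (SD, n = 2) in the control group to 14.5% ± 0.123 (SD, n = 2) in the Cre group. Both Cre libraries lay above both controls, and the difference was larger than the gap between the replicates of either group. It did not pass the limma adjusted threshold (adjusted p = 0.889, unadjusted p = 0.00956). This was the only locus of the 10 at an unadjusted p under 0.05, where 5.43% of all loci reached it. Without any 1 library the Egr3 difference was between 1.5 and 2.19 points. The locus mean counts its 20 regions equally. It includes the region from 70080375 to 70080693, with a difference of 17.3 points, that is described below, so the locus and that region are not separate results.

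Arc had the largest locus difference, 3.42 points, and the largest gap between control libraries. It was at 38.2% and 34.1% in the control group and at 39.9% and 39.2% in the Cre group. The groups did not overlap, but the gap between the 2 control libraries, 4.10 points, exceeded the difference between the groups (limma adjusted p = 0.947). Leaving out replicate 2 of that group gave 1.37 points, and leaving out replicate 1 gave 5.47 points. Fosb had a difference of -1.24 points, at 26.1% and 26.6% against 25% and 25.2% (limma adjusted p = 0.943). Nr4a1 was higher by 0.882 points, and Egr2 and Egr4 differed by -0.825 and -0.640 points, all with groups that did not overlap and none past the threshold. That makes 6 of 10 loci with groups apart, 3 in each direction, where 33.2% of all loci were apart, 16.9% higher and 16.3% lower. The loci of Fos, Junb, Egr1 and Npas4 overlapped between groups, with differences of -0.568, 0.0780, 1.15 and 0.651 points.

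Single regions showed larger differences than loci, and 0 of the 158 passed the test, as did 0% of all 849014 regions. By the limma test 12 of 158 had an unadjusted p under 0.05, or 7.59%, against 4.6% of all regions. The background depends on the level, and 76 of the 158 members were under 10%. Among regions under 10% the share was 9.21% for the members (7 of 76) and 11.8% for all regions. Among those at 10 to 50% it was 2 of 25 members against 3.75% of all regions, and above 50% it was 3 of 57 against 4.18%. Of the 12 regions, 5 were higher with Cre, where 2.25% of all regions were, and 7 lower, where 2.35% were. The 12 have a limma adjusted p of 0.937 each.

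The largest difference was at the downstream edge of the Egr3 stretch. The region from 70080375 to 70080693 (chromosome 14), 3058 to 3376 bp past the start and inside the annotated gene, was at 13.2% and 9.99% in the controls. In the Cre libraries it was at 25.1% and 32.6%. Both Cre libraries were above both controls, and the difference of 17.3 points exceeded the gaps between replicates, 3.18 and 7.59 points. It had the smallest unadjusted p of the 158 regions (limma, 0.00343) and did not pass after adjustment. Without any 1 library it stayed between 13.5 and 21.1 points. In the region before it, from 70079993 to 70080374, the levels were 9.49% and 4.52% against 9.85% and 15.0%. In the one before that, from 70079640 to 70079992, they were 5.99% and 7.94% against 20.6% and 3.39%, so there replicate 1 of the Cre group stood alone.

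Closer to the Egr3 start, 2 regions with levels close to 0% were lower with Cre, while 14 of the 20 Egr3 regions were higher. The region from 70077418 to 70077740 was at 0.549% and 1.5% in the controls and at 0% in both Cre libraries, and that from 70078086 to 70078416 at 2.08% and 0.725% against 0% in both. Each reached an unadjusted p under 0.05 in limma, with differences of -1.02 and -1.40 points. The logit scale gives much weight to such small steps next to 0%. Exact levels of 0% can come from few reads, and the depth behind a level is unknown here. At least 1 library was at exactly 0% in 54 of the 158 regions.

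In Egr1 a difference lay inside the stretch. Its last region, from 34862098 to 34862532 (chromosome 18), 891 to 1325 bp past the start, was at 1.65% and 0.536% in the controls and at 10.6% and 5.04% with Cre. The difference was 6.75 points, or 3.94 points without replicate 1 of the Cre group (limma unadjusted p = 0.00668, adjusted p = 0.937). The next region into the gene was at 42.7% and 40.2% against 54.9% and 29.4%, so the Cre libraries lay on both sides of the controls. Further on, the region from 34863195 to 34863894 had the largest difference in Egr1, 8.18 points, at 69.2% and 70.0% against 73.7% and 81.9%. Without replicate 2 of the Cre group it was 4.09 points. At the upstream end of the stretch, from 34859488 to 34859983, the levels were 0.952% and 3.66% against 0% and 0.164%, with an unadjusted p of 0.0250 in limma.

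Across the 10 genes, the edges did not share a direction. The first region past the stretch on the downstream side was higher in the Cre libraries in 6 of 10 genes, against 52.1% of 11541 genes with an unmethylated start. It did not overlap between groups in 4, higher in Egr3 and Arc and lower in Egr4 and Junb, where 17.7% of all such genes were apart and higher and 15.8% apart and lower. On the upstream side it was higher in 4 of 10, against 50.8% of all such genes. The edge comparison was chosen after the Egr3 and Egr1 values were seen. In Arc the downstream edge, from 74671594 to 74672197, had levels of 12.8% and 8.41% against 14.7% and 15.6%. In Egr4 the one from 85510658 to 85511522, which also had its largest difference, was at 16.7% and 10.8% against 9.54% and 9.34%. That difference of -4.28 points was -1.31 points once replicate 1 of the control group was left out.

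Arc had its largest difference over the 3' end of the gene, in a region that runs on past it. The region from 74667842 to 74670279 (chromosome 15, gene on the minus strand), 2291 to 4728 bp past the start, was at 60.0% and 54.8% in the controls and at 71.4% and 66.7% with Cre. Both Cre libraries were above both controls, and the difference of 11.6 points exceeded the replicate gaps of 5.15 and 4.73 points. It was between 9.07 and 14.2 points without any 1 library (limma unadjusted p = 0.0304, adjusted p = 0.937). The 2 regions further downstream were at 53.5% and 45.1% against 58.4% and 52.4%, and at 70.8% and 66.7% against 76.4% and 75.5%. Of the 10 Arc regions 4 had groups apart, all higher in the Cre libraries, where 15.9% of all regions were apart in that direction. In each of the 5 regions from 74661627 to 74672197, replicate 2 of the control group had the lowest of the 4 values.

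In the AP-1 genes, whose products Fos, Fosb and Junb form the dimers of that transcription factor, the largest differences lay upstream. For Fos it was the region from 85471379 to 85472252 (chromosome 12), from -2511 to -1638 bp relative to the start, at 21.9% and 15.8% in the controls and at 9.97% and 13% with Cre. Both Cre libraries were lower, by -7.37 points, or -4.35 points without replicate 1 of the control group (limma unadjusted p = 0.0443). For Fosb it was the region of 19312170 to 19315119, at -5074 to -2125 bp, with 66.9% and 64.3% against 51.7% and 58.2%. The difference was -10.6 points, or -13.9 to -7.36 points without any 1 library (limma unadjusted p = 0.0427). For Junb the region from 84983016 to 84984940 (chromosome 8), from -6192 to -4268 bp, went the other way, at 51.4% and 56.6% against 64.1% and 59.6%, and its unadjusted p in limma was 0.102. In Fosb a region next to the start, from 19309472 to 19309731, was at 0.450% and 0.4% against 0% in both Cre libraries, with an unadjusted p of 0.0418 in limma.

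The largest differences in Egr2 and Egr4 were smaller in size than those in Egr3 and Egr1. In Egr4 the region from 85512075 to 85512324 (chromosome 6) was at 1.16% and 1% in the controls and at 3.26% and 3% with Cre, a difference of 2.05 points that is small in size with the second smallest p of the members (limma, 0.00380). In Egr2 the levels from 67538480 to 67538841 (chromosome 10) were 3.06% and 1.80% in the controls and 1% and 0% with Cre. The largest difference in Egr2 was -7.91 points, from 67540292 to 67540800 inside the gene, at 66.2% and 59.0% against 54.6% and 54.8%, with an unadjusted p of 0.106 in limma. Leaving out replicate 1 of the control group gave -4.33 points. Each of these sets of libraries was apart, and none passed the adjusted threshold.

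Nr4a1 and Npas4 each had their largest difference in a methylated region. The next largest in Npas4, 6.65 points, was in its start region under 10%. In Nr4a1 the region from 101262827 to 101264798 (chromosome 15), from -4019 to -2048 bp relative to the start used here, was at 84.7% and 86.1% in the controls and at 91.5% and 89.6% with Cre, higher by 5.08 points (limma unadjusted p = 0.0301). Past that start, from 101269859 to 101270509, the levels were 72.9% and 81.6% against 86.8% and 85%. That difference of 8.64 points was no larger than the gap between the control libraries, 8.65 points. In Npas4 the levels from 4995577 to 4997447 were 72.4% and 64.0% in the controls and 60.5% and 59.5% with Cre. The difference was -8.14 points with an unadjusted p of 0.109 in limma, and the gap between its control libraries was 8.41 points.

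**Figure D4:**
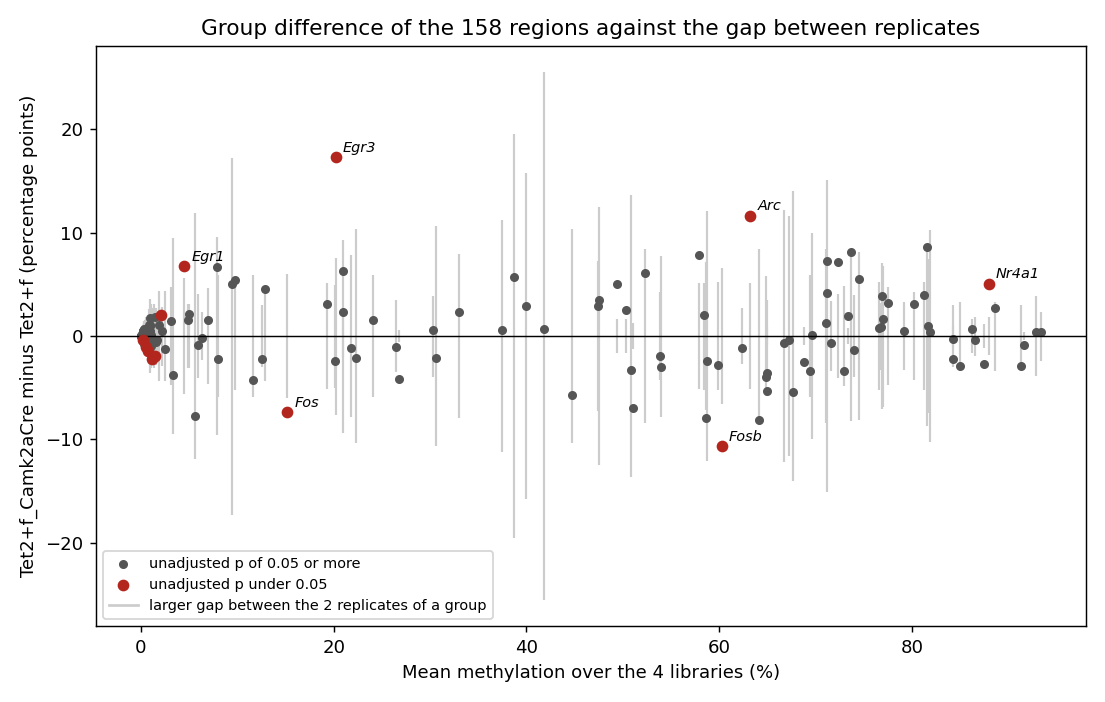
Difference between the Cre and control group means in percentage points (vertical axis) against the mean methylation of the region in percent, for the 158 regions. Red points have an unadjusted p under 0.05, gray bars span the larger gap between the 2 replicates of a group, drawn on both sides of 0, and genes are named at red points beyond 5 points. Differences lie on both sides of 0 and are largest in Egr3 (17.3 points), Arc (11.6) and Fosb (-10.6).

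Of the 158 regions together, 85 were higher with Cre, 67 lower and 6 at 0% throughout, and the median difference was 0.125 points. Among all regions, 49.2% lay higher with Cre and the median was -0.0214 points. The count among the members was 75 without replicate 1 of the Cre group and 74 without replicate 2, with 72 and 71 lower and a median difference of 0 points in both cases. The median over all regions also changed sign, from -0.168 to 0.0430 points, with the library left out. The groups were apart in 46 of the 158, or 29.1%, against 32.8% of all regions. Of these, 21 were higher and 25 lower, against 15.9% and 16.8% of all regions. The difference exceeded both replicate gaps in 29 regions, or 18.4%, against 21.1% of all regions. Replicate 1 of the Cre group had the single highest value in 23 of the 76 members under 10%, against 13, 13 and 19 for the other libraries, and its mean over them was 1.98% against 1.46%, 1.57% and 1.52%. The same library was most often the highest among all 48463 regions under 10%, in 24.0% of them against 21.6%, 23.5% and 22.4%.

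Other genes of the activity response gave no member past the adjusted threshold over promoters. Of 40 further rapid response genes 39 had a promoter level, and 20 were higher and 19 lower in the Cre libraries, with a median difference of 0.0213 points. Among 15 later response genes 7 were higher and 8 lower, with a median of -0.00563 points. Of 29 upstream regulators, such as Srf and Creb1, 16 were higher and 13 lower, with a median of 0.195 points. Over all promoters 50.9% were higher and the median was 0.0318 points. At an unadjusted p under 0.05 in limma there were 2 rapid response genes, both lower, or 5.13% of the list against 5.31% of all promoters, and 0 in the other lists. Over loci, 2 of 37 rapid response genes reached it, or 5.41% against 5.43% of all loci, and both were higher. Those 2, Arl4d and Gadd45b, were named after their values were seen. The promoters were Plk3, a kinase gene, at 10.6% and 11.2% against 9.30% and 8.53%, and Ier3 at 21.3% and 19.6% against 17.7% and 16.3%. Nab2, a corepressor of Egr proteins, was next among the lower ones, at 3.93% and 4.03% against 2.94% and 3.41%. The smallest p among the higher ones belonged to Sik1, a salt-inducible kinase gene, at 8.44% and 8.85% against 10.3% and 14.5%, followed by Csrnp1 at 67.7% and 67.1% against 69.7% and 73.3% and Arl4d at 30.7% and 31.7% against 35.1% and 33.8%. Their limma adjusted p was 0.931 or 0.943.

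For the libraries as wholes, all regions averaged 75.7% and 76.1% in the controls and 76.0% and 75.8% with Cre, which differ by -0.00683 points (exact permutation test, two-sided, p = 1, where 0.333 is the smallest p that 6 arrangements allow). At the Tet2 promoter the levels were 4.30% and 3.19% in the controls against 14.9% and 2.84% with Cre, which does not show whether part of the gene was deleted. The Camk2a promoter was at 30.5% and 30.4% against 69.7% and 66.6%, the largest positive difference of any promoter in points, with a limma adjusted p of 0.0771. Its part in the differences at the immediate early genes was not tested. Promoters of CA1 and excitatory neuron markers had a median level of 16% in the control and 16.4% in the Cre group. The medians were 36.3% and 37.2% for interneuron markers, 56.8% and 58.7% for astrocyte markers, and 78.9% and 73.9% for oligodendrocyte markers. For microglia markers they were 77.2% and 76.7%, and for endothelial markers 70.7% and 72.7%. These are methylation levels and not expression, and no RNA was analysed here.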

How the data were processed

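Whole-genome bisulfite libraries of CA1 tissue were sequenced as 150 bp read pairs, per the labels' protocols. The authors deposited 1 table of methylation in percent for each region and library, without read counts or coverage, so depth is unknown, and counting error has no interval here. Per the submitters' processing notes the build was mm10, and Bismark 0.19.0, edgeR, FastQC 0.11.5 and Trim Galore 0.4.5 are listed without their roles. How regions were drawn is not given in the sources used here. Of 849172 regions, 158 without a value in some library were left out, a number that equals the count of member regions by coincidence.

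Each level, taken as a share x of 1, was transformed to log2((x + 0.01)/(1 - x + 0.01)) and compared between groups in R 4.3.3 using limma 3.58.1, with Benjamini-Hochberg adjustment at 0.05 over all regions, promoters or loci. The script was tested on simulated data. Promoter and locus levels are plain means over regions. A gene start is the outermost start in the RefSeq promoter table or, where a gene has none there, the end of its gene span, both GRCm38.p6. No exon annotation was used, so positions are given relative to gene spans. Every member was named. Of a member, the text gives the start region, the region with the largest difference and each region with an unadjusted p under 0.05. Neighbouring regions are described beside these and were chosen after their values were seen. Of the other activity genes, the 3 smallest p in each direction over promoters were named. The members and gene lists were chosen with earlier results of these data known.

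The alternatives were leaving out each library, a replicate block, the percent scale, an offset of 0.05, a trended and robust prior, other promoter windows, weights and flanks, filters on short regions and on promoters of 1 region, and, added after seeing the data, the outermost annotated start.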

Additional observations from a re-analysis of the deposited data

How the results depend on the processing

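The number of regions past the adjusted threshold was 0 in the reported analysis and under each alternative except regions of 500 bp or more alone, where 5 passed, none of them a member. The number of promoters past it was 5, and it was 0 without any 1 library, under the replicate block, on the percent scale, with an offset of 0.05, with 1000 bp upstream and among promoters of 2 or more regions. No locus passed under any alternative run. Replicate numbers were not treated as pairs, since the deviations of the same number in both groups correlated with r = 0.00648 over regions. With the number as a replicate block 0 regions, 0 promoters and 0 loci passed, with 1 residual degree of freedom. A lone library left in a group is taken to have the spread of the other group. The mean over all regions differed by -0.180 to 0.167 points without any 1 library.

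Under other settings, 414 of 455 values for the genes and regions of the text kept their direction, 22 reversed, 19 had no direction because the reported or the alternative difference was exactly 0, and none passed the threshold (lowest limma adjusted p = 0.757). With each region weighted by overlap, the promoter difference was -0.499 points for Arc and -0.538 for Egr4. With 1000 bp upstream it was 0.0734 for Junb and 0.175 for Egr1, and with the outermost start -1.85 for Npas4 and -2.78 for Nr4a1. Without flanks the locus difference was 0.494 for Fos and -0.161 for Junb. Without any 1 library the start region ranged from -0.291 to 2.38 points in Arc, -0.185 to 1.48 in Fos and -0.349 to 0.151 in Fosb. Promoters ranged from -0.421 to 0.433 in Fosb, -1.01 to 0.572 in Junb, -1.17 to 0.268 in Egr1, -0.0391 to 0.218 in Egr2 and -0.163 to 0.684 in Egr3, and loci from -0.372 to 0.528 in Junb and -0.133 to 1.43 in Npas4. The cause of these reversals was not tested.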
